A study of Saccharomyces cerevisiae with 222 samples.

Results

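The genes described here are the 3 G1 cyclins of budding yeast (CLN1, CLN2 and CLN3), its 6 B-type cyclins (CLB1 to CLB6) and SIC1, an inhibitor of the kinase that the B-type cyclins drive. They were chosen by name, and all 10 were found among the 5818 genes of the tables and passed the filter on low counts in each experiment. RNA-seq covered 222 libraries of SK1 strains in 4 experiments, with 3 libraries in each of 74 conditions. These libraries are biological replicates per the methods.

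In the mitotic experiment, cells grew in rich medium, and the study's strain list gives every strain as a MATa haploid, although ume6Δ cells did not have the markers of one. The depletion strain carried UME6-AID-3V5, LexA-ER-B112 and 4xLexO-TIR, so that β-estradiol induced the TIR ligase adaptor and auxin then triggered loss of the tagged Ume6 protein. Its control strain had the same alleles without 4xLexO-TIR and received both chemicals, and both strains were sampled at -30, 0, 15, 30, 60 and 120 min from auxin. A ume6Δ strain, with the reading frame of the repressor Ume6 replaced by a drug marker, was set against WT, and both were sampled once.

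The meiotic depletion strain carried UME6-AID-3V5, lexA-ER-GAL4AD and 8xlexO-OsTIR, and its control lacked 8xlexO-OsTIR. In both a/alpha diploids IME1 and IME4 were driven by the copper-inducible CUP1 promoter and induced just after 2 h in sporulation medium. Both strains received β-estradiol and auxin after 0.5 h, so their 0.5 h samples came before depletion. The rescue experiment crossed 2 IME1 alleles (sfGFP-IME1 and IME1) with 4 UME6 alleles (UME6(T99N)-3V5-aGFP, UME6(T99N)-3V5, UME6-3V5 and UME6) in diploids sampled at 0, 2, 4 and 6 h in sporulation medium. T99N lies in the part of Ume6 that binds its activator Ime1, and aGFP is a nanobody that traps GFP-tagged proteins. In the activation domain experiment all 4 strains were ime1Δ diploids with UME6(T99N)-3V5-aGFP and one transgene under the IME1 promoter, namely sfGFP-IME1, sfGFP-B112, IME1 or B112, where B112 is a heterologous activation domain. The sources used here do not say how many independent transformants stand behind a strain.

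Cyclins bind and activate Cdc28, the cyclin-dependent kinase of budding yeast. In the mitotic cycle Cln3 starts the G1/S programme, Cln1 and Cln2 drive budding and mark Sic1 for destruction, Clb5 and Clb6 start DNA replication, and Clb1 to Clb4 drive the spindle and mitosis until the anaphase-promoting complex and Sic1 end their activity. In meiosis the kinase Ime2 takes over the role of the G1 cyclins, Clb5 and Clb6 start premeiotic replication, and Clb1, Clb3 and Clb4 drive the meiotic divisions after the transcription factor Ndt80 is made, whereas Clb2 has no large part in them.

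Library totals lay between 4322697 and 23448759 estimated counts, except for 1 library of 44189 (sfGFP-IME1; UME6-3V5 at 4 h, replicate 2). It entered no test between conditions but shared in the estimate of the spread and in the mean TPM of its condition. That mean was used in the orders of TPM and in the search for genes with like patterns. All 77 calls of its experiment held without this library. Counts and TPM (abundance per transcript length, with the same total in every library) of IME1; UME6-3V5 replicate 1 matched each other only when 0 h and 2 h were exchanged, so both libraries were left out and that strain had 2 libraries at those times. UME6 RNA was 0.239 TPM in ume6Δ cells and 35.5 TPM in WT cells, as the labels require. The WT cells had the defining markers of MATa haploids (STE2 636 TPM, STE4 125 TPM), whereas ume6Δ cells did not (STE2 20.4 TPM, STE4 9.14 TPM) and had the alpha-factor gene MFALPHA1 at 48.1 TPM against 0.263 TPM in WT cells. In bulk RNA, fewer cells in a stage and less RNA per cell cannot be told apart.

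The sequences before the start codons of 3 members are shown because these are genes whose RNA differed widely between the conditions and, for CLB2, a close relative of CLB1 that did so less. Searches used both strands of the reference genome R64 (S288C, RefSeq), whose bases may differ from SK1. The windows are given with the core of the middle sporulation element, the site of Ndt80 (CACAAA or CGCAAA), in capitals. Each runs from base 300 to base 91 before the start codon, 5′ to 3′ on the gene's strand.
CLB1 (R64 chrVII:703336-703545, + strand): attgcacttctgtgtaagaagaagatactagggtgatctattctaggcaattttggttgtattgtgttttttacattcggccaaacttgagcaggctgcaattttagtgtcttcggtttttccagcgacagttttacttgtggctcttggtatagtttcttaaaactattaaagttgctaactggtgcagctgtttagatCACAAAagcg
CLB2 (R64 chrXVI:771353-771562, + strand): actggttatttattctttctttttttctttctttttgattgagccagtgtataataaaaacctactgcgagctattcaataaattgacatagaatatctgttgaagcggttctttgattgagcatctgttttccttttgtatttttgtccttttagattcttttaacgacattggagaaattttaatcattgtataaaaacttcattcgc
CLB5 (R64 chrXVI:775273-775482, - strand): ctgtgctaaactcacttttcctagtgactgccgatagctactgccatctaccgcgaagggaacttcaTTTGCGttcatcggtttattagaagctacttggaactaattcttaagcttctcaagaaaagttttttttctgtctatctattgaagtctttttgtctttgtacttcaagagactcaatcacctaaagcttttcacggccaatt

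Within 300 bases of the start codon the middle sporulation element core was found before CLB1, CLB4 and CLB5, and 29.7% of 6007 genes had it there. Within 600 bases it was found before 5 members (CLN2, CLB1, CLB4, CLB5 and CLB6) and 50.4% of 6005 genes, so these letters are common. CLB1 had 4 matches in 600 bases and its close relative CLB2 had none. The core of URS1 (GGCGGC), the site of Ume6, was found before none of the 10 members within 600 bases and before 11.4% of all genes. ACGCGT, the MCB element of G1/S genes, was found within 600 bases before CLB6, at 403 and 377 bases, and before 6.34% of all genes. The SCB element CNCGAAA was found there before CLN1, CLN2, CLB4 and SIC1 and before 24.7% of all genes, and the forkhead site GTAAACA before CLB4 and CLB6 and before 12% of all genes. A match describes the letters and does not show a bound site.

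CLB1 and CLB6 lie next to each other on chromosome VII and CLB2 and CLB5 on chromosome XVI, each pair facing end to end with 307 and 746 bases between the coding regions in R64. The libraries were made with a directional kit, but whether kallisto used strand is not given in the sources used here, so reads from overlapping ends of these pairs could not be told apart if it did not. CLB1 and CLB2, CLB3 and CLB4, CLB5 and CLB6, and CLN1 and CLN2 are also pairs of related coding sequences, between which a read can be split, although all of the members' estimated counts were whole numbers (within 1e-06).

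In growing WT cells the members spanned 14.6 ± 1.37 TPM (CLB6) to 131 ± 13.6 TPM (CLN3; SD, n = 3). In order of TPM they stood as CLN3, CLB2, SIC1, CLN2, CLB3, CLN1, CLB5, CLB1, CLB4 and CLB6, and the libraries of CLN3 and CLB2, of CLB2 and SIC1, of SIC1 and CLN2, of CLB3 and CLN1 and of CLB1 and CLB4 overlapped. In IME1; UME6 diploids at 6 h in sporulation medium the order was CLB1, CLB3, CLB4, CLB5, CLB6, CLB2, SIC1, CLN2, CLN3 and CLN1, with overlap between CLB1 and CLB3, CLB3 and CLB4, and SIC1 and CLN2. The 2 orders come from separately normalized tables. Over the 74 conditions CLN3 had the highest TPM of the members in 25, CLB3 in 20, SIC1 in 14 and CLB5 in 11, while CLB6 was the lowest in 39 and CLB2 and CLN1 in 16 each. By CPM, the share of library counts without division by length, CLN3 was the highest in 38, CLB3 in 18, CLB5 in 10 and SIC1 in 2, and the full order was the same on both scales in 4 of the 74.

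Within the rescue experiment the B-type cyclins had the widest ranges by ratio, and condition means ran from 0.269 to 222 TPM for CLB6, from 1.82 to 673 TPM for CLB1, from 3.25 to 366 TPM for CLB5 and from 7.09 to 527 TPM for CLB4. CLB2, the main mitotic cyclin, ran from 1.53 to 29.2 TPM there, and from 66.4 to 119 TPM in the mitotic experiment. CLB3 stayed between 53.6 and 71.4 TPM in the mitotic experiment and reached 613 TPM in sporulation medium. In the activation domain experiment the ratios were wider than in the rescue experiment for CLB1 (0.365 to 575 TPM), CLB6 (0.205 to 203 TPM), CLB4 (2.67 to 360 TPM) and CLB2 (0.131 to 15.9 TPM), with the lowest mean of each in the B112 strain at 0 h. The means of CLB1, CLB6 and CLB2 there rest on few reads, which limits these ratios.

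Before auxin no member passed the test between the mitotic depletion strain and its control strain. With edgeR's quasi-likelihood test and Benjamini-Hochberg adjustment over all genes, 0 of 20 tests of members at -30 and 0 min passed an adjusted p of 0.05, where 0.264% of all tests were called higher and 0.109% lower. DESeq2 also called 0, and 5 of the 20 had an unadjusted p below 0.05, as did 343 and 477 of all 5488 genes at -30 and 0 min. After auxin, 2 of 40 tests found a member higher and 3 found one lower in the depletion strain, against 5.71% and 4.35% of all tests.

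The early meiotic kinase gene IME2 averaged 54.9 TPM in the depletion strain at 15 min, against 5.39 TPM in the control strain. CLB1 had 19.2, 23 and 19.1 TPM in the depletion strain at that time, against 13.4, 13.3 and 12.9 TPM in the control strain. The libraries did not overlap, and the difference was 0.58 ± 0.16 on the log2 scale (SE, adjusted p = 0.0136, edgeR). At 60 min CLB1 was higher by 0.53 ± 0.16 (adjusted p = 0.0359, edgeR), and by 120 min it had risen by 0.75 ± 0.16 in the control strain too (adjusted p = 0.000145).

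CLN3 fell by 0.39 at 15 min (means of 99.8 TPM in the depletion strain and 126 TPM in the control strain, adjusted p = 0.0172, edgeR) and by 0.41 at 120 min (92.3 ± 12.7 TPM against 127 ± 9.37 TPM, adjusted p = 0.0238). CLN1 fell by 0.29 at 120 min (adjusted p = 0.00526), with 37.1, 38.8 and 36.3 TPM in the depletion strain, against 49.3, 52.7 and 40.7 TPM in the control strain. CLN2, the 5 other B-type cyclins and SIC1 passed at no time after auxin. The strains stood in the same order at 0 min, before auxin, where CLB1 averaged 16.6 TPM in the depletion strain and 12.6 TPM in the control strain (0.39 ± 0.16, adjusted p = 0.532, edgeR). CLN3 averaged 120 TPM in the depletion strain and 148 TPM in the control strain at that time (-0.31 ± 0.11, adjusted p = 0.48), and neither gene's libraries overlapped. Whether the differences after auxin exceed those before it was not tested. These 5 calls depend on single cultures: without control replicate 1 the count was 0, without control replicates 2 and 3 it was 3 and 2, without depletion replicate 2 it was 2 and without depletion replicate 3 it was 9. Against only the compared groups' own spread, CLB1 at 60 min and CLN1 and CLN3 at 120 min had adjusted p of 0.0839, 0.255 and 0.146.

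Deletion of UME6 went with lower RNA of most members. The paper reports a severe growth defect of the ume6Δ strain, whose part in these differences was not tested. In ume6Δ cells 6 of 10 members were lower than in WT cells and 1 was higher, against 27.8% and 27.5% of all genes, and the median of the members was -0.42 on the log2 scale, where that of all genes was -0.03. All 7 calls held without any one library and with DESeq2. The G1 cyclin genes CLN1 and CLN2 fell by 0.90 and 0.75 (SE 0.07 each, adjusted p = 2.19e-13 and 1.87e-10, edgeR).

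CLN1 had 31.9, 34.5 and 36.7 TPM in ume6Δ cells, against 63.9, 63.1 and 52.9 TPM in WT cells. CLN2 had 57.5, 55.2 and 60.8 TPM in ume6Δ cells, against 95.4, 89.7 and 87.6 TPM in WT cells. For both genes every ume6Δ library lay below every WT library. CLN3, the upstream G1 cyclin, averaged 148 ± 16.6 TPM in ume6Δ cells and 131 ± 13.6 TPM in WT cells, and its log2 difference of 0.07 ± 0.11 had an adjusted p of 0.61 (edgeR).

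Among the B-type cyclins CLB1 and CLB2, close relatives, went in opposite directions. CLB1 had 36.3, 42.2 and 53.9 TPM in ume6Δ cells, against 26.2, 24 and 19.1 TPM in WT cells, with no overlap and a rise of 0.82 ± 0.15 (adjusted p = 1.75e-05, edgeR). CLB2 had 70.7, 77.8 and 102 TPM in ume6Δ cells, against 124, 132 and 100 TPM in WT cells. The CLB2 libraries overlapped, and the fitted fall was 0.61 ± 0.12 (adjusted p = 4.58e-05, edgeR). The log2 ratio of CLB1 to CLB2 in TPM was -0.92 ± 0.04 in ume6Δ cells and -2.36 ± 0.11 in WT cells (SD, n = 3).

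CLB3 and CLB4 fell by 0.44 and 0.40 in ume6Δ cells. The replication cyclins CLB5 (33.9 ± 4.9 TPM in ume6Δ cells and 36.2 ± 5.35 TPM in WT cells) and CLB6 (15.5 ± 1.16 TPM in ume6Δ cells and 14.6 ± 1.37 TPM in WT cells) did not pass, with adjusted p of 0.118 and 0.949 (edgeR). SIC1 had 66.8, 56.9 and 62.6 TPM in ume6Δ cells, against 110, 104 and 84.8 TPM in WT cells, and fell by 0.78 ± 0.10 (adjusted p = 2.81e-08, edgeR).

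**Figure D1:**
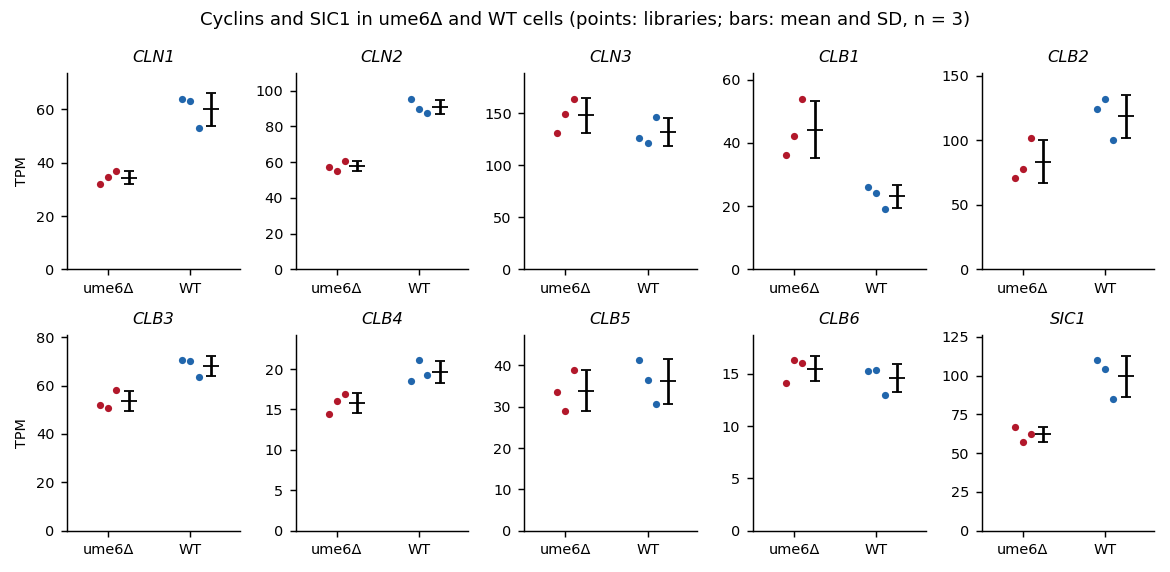
TPM of each member in ume6Δ cells (left) and WT cells (right), on linear axes that start at 0. Points are libraries and bars show the mean and SD (n = 3); CLN1, CLN2, CLB3, CLB4 and SIC1 lie lower in ume6Δ cells without overlap, and CLB1 lies higher.

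Of the lists around the cyclins, 5 of 6 G2/M genes that cycle with CLB2 were lower in ume6Δ cells and 0 higher (median -0.46), among them CDC5, the polo kinase gene, which fell by 0.66. Of 4 M/G1 genes that cycle with SIC1, 3 fell and the chitinase gene CTS1 rose by 2.91. SWI5, which encodes an activator of SIC1, fell by 1.40, and FAR1, the inhibitor of Cln-Cdc28 in mating cells, fell by 3.14. Of 8 genes for cyclin and Sic1 turnover 2 fell and 2 rose, the meiotic activator of the anaphase-promoting complex AMA1 by 4.16. Of all genes 27.8% were lower and 27.5% higher in ume6Δ cells. The marker genes of mating type moved with the same contrast: STE2, BAR1, STE4, GPA1, RME1 and FUS3 were at 2.62 to 20.4 TPM in ume6Δ cells, against 17.3 to 636 TPM in WT cells, and their part in these differences was not tested. The labels list both chemicals for ume6Δ and WT cells, which the study's methods place before treatment.

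The control strain of the mitotic experiment shows how members moved over time without depletion. Against its own -30 min, 11 of 50 tests were higher and 16 lower, beside 20.6% and 22.5% of all tests. CLB6 had 3.07, 2.74 and 3.01 TPM at -30 min and 10.9, 12.7 and 14.2 TPM at 0 min, after β-estradiol but before auxin. That rise of 2.11 ± 0.17 (adjusted p = 1.43e-11, edgeR) held to 120 min, where it was 2.23. CLN3 fell at each later time, by 0.44 at 0 min (lost without control replicate 3, at -0.38 and adjusted p = 0.0773) and by 0.85 at 120 min, and SIC1 fell by 0.33 to 0.52. The SIC1 fall at 0 min was lost without control replicate 1 (-0.29, adjusted p = 0.109) or replicate 3 (-0.36, adjusted p = 0.0522), and that at 60 min without replicate 1 (-0.23, adjusted p = 0.15). CLB6 in the depletion strain was 4.23 ± 1.27 TPM at -30 min and 12.2 ± 0.91 TPM at 0 min. WT cells, which the methods place before treatment, had CLB6 at 14.6 ± 1.37 TPM. The part of treatment in the CLB6 rise was not tested.

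The meiotic depletion experiment asks what depletion of Ume6 before entry does to the genes that Ime1 induces. The paper reports that Ume6 was depleted less fully here than in the mitotic experiment. Of 60 tests 6 (10%) found a member higher in the depletion strain and 3 (5%) found one lower, against 3.32% and 4.00% of all tests. No member passed at 0.5 h, before depletion, or at 2 h, and the tests at 0.5 h are among the 60. Of all genes 0.0181% were higher and 0.163% lower at 0.5 h, and 1.85% were higher and 2.9% lower at 2 h. The 3 lower calls were CLB5 at 2.5 and 3 h and CLB6 at 2.5 h, and the 6 higher calls were CLN1 at 3 and 4.5 h, CLN3 at 2.5 and 3 h, CLN2 at 4.5 h and CLB3 at 6 h. Up to 6 h, the last sample, NDT80 was at 8.32 to 18.5 TPM in all 12 conditions of both strains. The paper places NDT80 expression later than this in another strain with the same induction. It also reports that most control cells went on to form spores, whereas few cells of the depletion strain did.

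CLB5 had 83.8, 88.5 and 84.4 TPM in the depletion strain at 2.5 h, against 142, 132 and 118 TPM in the control strain. All depletion libraries lay below all control libraries, with a fall of 0.56 ± 0.13 (adjusted p = 0.00627, edgeR). CLB6 had 8.26, 11.8 and 6.31 TPM in the depletion strain, against 18.9, 13.4 and 15.2 TPM in the control strain, and fell by 0.79 ± 0.25 (adjusted p = 0.0421). At 3 h CLB5 fell by 0.49 (adjusted p = 0.0182), with overlapping libraries, and at 4.5 and 6 h neither gene passed.

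Among the G1 cyclins, CLN2 had 54.9, 60.8 and 51.3 TPM in the depletion strain at 4.5 h, against 22.8, 37.7 and 37.5 TPM in the control strain. The rise was 0.94 ± 0.18 (adjusted p = 0.000853, edgeR) and no libraries overlapped. CLN1 rose by 0.93 ± 0.24 at 3 h and by 0.73 ± 0.23 at 4.5 h, and CLN3 by 0.68 ± 0.22 at 2.5 h and by 0.81 ± 0.22 at 3 h. Depletion replicate 3 at 3 h stood high for CLN1 (51.4 TPM, against 25.4 and 19.7 TPM in the other two) and CLN2 (81 TPM, against 44 and 33.7 TPM), and without that culture the CLN1 value at 3 h was 0.52 (adjusted p = 0.202). CLN3 in control replicate 1 stood low at 3 h (61 TPM, against 126 and 121 TPM), and without that culture its value was 0.55 (adjusted p = 0.126).

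CLB3 had 110, 96.7 and 111 TPM in the depletion strain at 6 h, against 72.5, 67.6 and 84.4 TPM in the control strain, a rise of 0.57 ± 0.11 without overlap (adjusted p = 0.000278, edgeR). CLB1, CLB2, CLB4 and SIC1 passed at no time. The calls of CLB5 at 2.5 h, CLN2 at 4.5 h and CLB3 at 6 h held without any one culture. CLN1 at 4.5 h was lost without any one of 6 cultures (adjusted p of 0.0729 to 0.129), CLN3 and CLB6 at 2.5 h each without any one of 5 (0.0576 to 0.238 and 0.0755 to 0.182), and CLB5 at 3 h without any one of 3 (0.122 to 0.253). CLN1 at 3 h was also lost without control replicate 2 (0.84, adjusted p = 0.0914) and CLN3 at 3 h without depletion replicate 1 (0.69, adjusted p = 0.0794). Against only the compared groups' own spread, CLB6 at 2.5 h and CLN1, CLN3 and CLB5 at 3 h had adjusted p of 0.0776, 0.186, 0.191 and 0.292. Over all members the count of 9 became 5 without control replicate 2, 4 without depletion replicate 1 and 5 without depletion replicate 3.

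**Figure D2:**
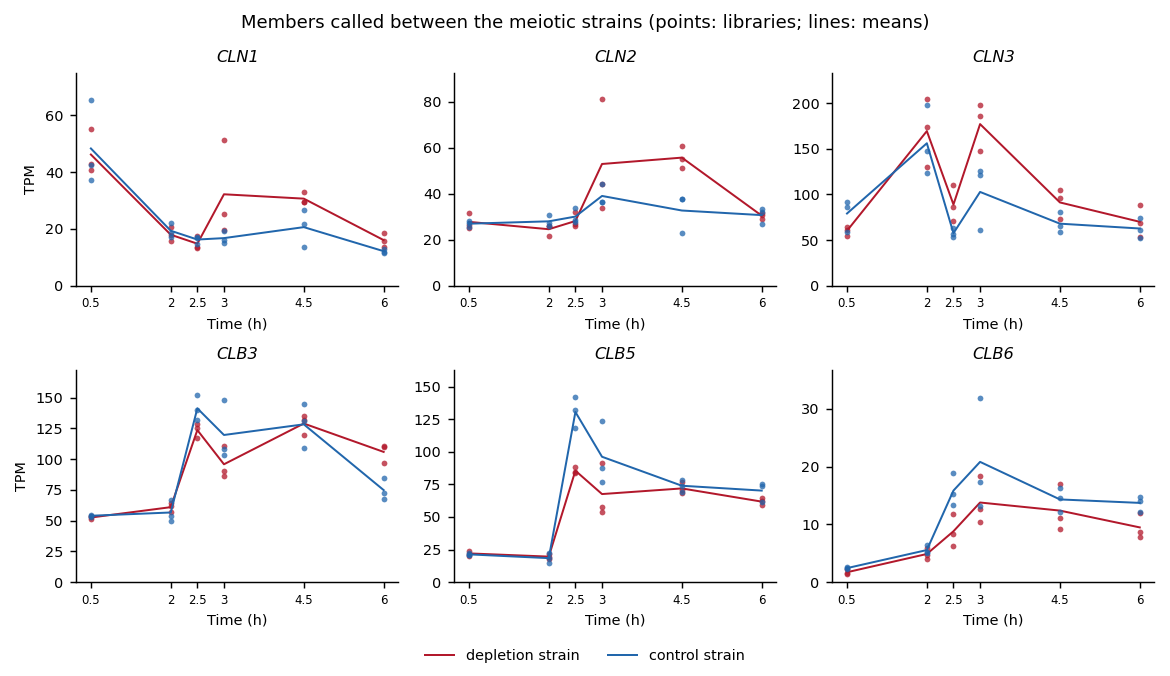
TPM over time in sporulation medium (h) of the 6 members called between the meiotic depletion strain and its control strain, on linear axes. Points are libraries and lines join the means (n = 3); CLB5 and CLB6 lie lower in the depletion strain at 2.5 h, and CLN2 lies higher at 4.5 h.

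The change from 2 h was also compared between the strains. CLB5 rose less in the depletion strain by 2.5 h (difference of the changes -0.70 ± 0.20, adjusted p = 0.0498, edgeR), and CLN2 rose more by 4.5 h (1.08 ± 0.25, adjusted p = 0.01). These were the only 2 of 40 tests called, 1 higher and 1 lower, beside 1.80% and 2.89% of all tests, and DESeq2 called 4. CLB5 at 2.5 h was lost without any one of 5 cultures (adjusted p of 0.0776 to 0.333), and CLN2 at 4.5 h without control replicate 1 (0.89, adjusted p = 0.0533) and without depletion replicate 2 (0.91, adjusted p = 0.0743). IME2 was 344 TPM in the depletion strain and 1183 TPM in the control strain at 2.5 h. Of the 5 G1/S genes fixed beside the cyclins, 3 were lower in the depletion strain at 3 h (median -0.69) and 4 were higher at 4.5 h (median 0.93), where the medians of all genes were 0.02 and 0.01, 4.63% of all genes were lower at 3 h and 4.47% higher at 4.5 h.

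In the control strain of this experiment IME1 induction was followed by a rise of the replication cyclins. Against 2 h, 14 of 40 tests were higher and 16 lower, beside 31.3% and 32.8% of all tests. CLB5 had 22.2, 14.5 and 18.4 TPM at 2 h and 142, 132 and 118 TPM at 2.5 h, a rise of 2.58 ± 0.15 (adjusted p = 1.57e-15, edgeR). CLB3 rose by 1.07 and CLB6 by 1.25 over the same 30 min, whereas CLN3 fell by 1.69, CLB1 by 1.01 and CLB2 by 0.91. SIC1 fell by 0.84 at 3 h and by 1.47 at 6 h. As a ratio of mean TPM the median of all genes was 0.18 to 0.22 before 6 h and 0.03 at 6 h, and no member's call changed direction on that scale. The fall of CLN3 at 3 h rested on control replicate 1, without which it was -0.36 (adjusted p = 0.129).

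In IME1; UME6 diploids every member differed from its 0 h level by 6 h, when 7 were higher and 3 lower and when 39.6% of all genes were higher and 42% lower. Over 2, 4 and 6 h, 18 of 30 tests were higher and 9 lower, beside 36.4% and 37.8% of all tests. All 6 B-type cyclins were higher at 6 h, when NDT80 was 942 TPM, whereas it was 66.4 TPM at 4 h. CLN1, CLN3 and SIC1 fell, and CLN2 rose.

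CLN3 had 114, 117 and 135 TPM at 0 h, 35.7, 32.2 and 21.1 TPM at 2 h, and 11.6, 12.6 and 11.6 TPM at 6 h. Its fall was 2.91 ± 0.21 at 6 h (adjusted p = 4.99e-21, edgeR). CLN1 averaged 25.1 ± 5.07, 12.1 ± 1.04, 9.69 ± 2.3 and 8.10 ± 1.34 TPM at 0, 2, 4 and 6 h. CLN2, its relative, averaged 5.86 ± 0.787, 20.3 ± 0.698, 24.2 ± 2.31 and 20.5 ± 2 TPM, so the log2 ratio of CLN1 to CLN2 turned from 2.09 ± 0.41 at 0 h to -1.35 ± 0.27 at 6 h.

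At 2 h 5 members were higher than at 0 h, namely CLN2, CLB3, CLB4 and the replication cyclins CLB5 and CLB6. Of all genes 33% were higher and 33.8% lower at 2 h. CLB5 had 5.78, 6.06 and 3.91 TPM at 0 h, 74.5, 56.3 and 91.4 TPM at 2 h, and 401, 360 and 338 TPM at 6 h. CLB6 had 0.883, 0.557 and 0.594 TPM at 0 h, which rested on 8, 3 and 3 estimated counts, then 10.4, 5.74 and 9.7 TPM at 2 h and 249, 220 and 197 TPM at 6 h. No library of either gene overlapped between 0 h and a later time. The rise at 6 h was 6.55 ± 0.25 for CLB5 and 8.69 ± 0.39 for CLB6 (adjusted p = 3.81e-35 and 2.68e-31, edgeR).

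Among the cyclins of the divisions, CLB3 and CLB4 were higher from 2 h on, whereas CLB1 passed only at 6 h. CLB1 had 19.3, 18.8 and 11.9 TPM at 0 h, 14.4, 14.7 and 15.1 TPM at 4 h, and 737, 650 and 632 TPM at 6 h, a rise of 5.77 ± 0.34 over 0 h (adjusted p = 1.2e-24, edgeR). CLB4 climbed through the course, with 9.25 ± 2.15, 22.1 ± 2.66, 42.2 ± 1.35 and 527 ± 42 TPM at 0, 2, 4 and 6 h. CLB3 averaged 41.4 ± 3.91, 75.5 ± 9.63, 82.2 ± 12.8 and 613 ± 144 TPM at the same times.

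CLB2 changed far less than CLB1: it had 8.16, 10.4 and 6.66 TPM at 0 h and 27, 33.2 and 27.3 TPM at 6 h, a rise of 2.23 ± 0.20 (adjusted p = 2.39e-16, edgeR). Its rise at 4 h was lost without replicate 1 (0.55, adjusted p = 0.0549) or replicate 3 (0.49, adjusted p = 0.0805). The log2 ratio of CLB1 to CLB2 was 0.98 ± 0.23 at 0 h, 0.01 ± 0.12 at 4 h and 4.53 ± 0.24 at 6 h. SIC1 fell at each time, with 100 ± 10.9 TPM at 0 h and 22.4 ± 3.59 TPM at 6 h (SD, n = 3) and a log2 difference of -1.72 ± 0.14.

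The sum of TPM of the 10 members was 335, 343, 380 and 2493 at 0, 2, 4 and 6 h. B-type cyclins made up 24.4, 60.1, 74.9 and 97.4% of it, and SIC1 29.9, 21.7, 12.1 and 0.918%. On the scale of mean TPM the median of all genes was -0.48 at 6 h, where edgeR's TMM scaling gave -0.04 and RLE size factors 0.17, and all 27 calls kept their direction under each scaling. All 6 G2/M genes that cycle with CLB2 rose at 6 h (median 3.01), CDC5 by 6.08, and 7 of 8 turnover genes, CDC20 by 5.98 and AMA1 by 6.89. Of all genes 39.6% were higher and 42% lower at 6 h. CTS1 and ASH1, which cycle with SIC1, fell by 2.59 and 2.21.

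**Figure D3:**
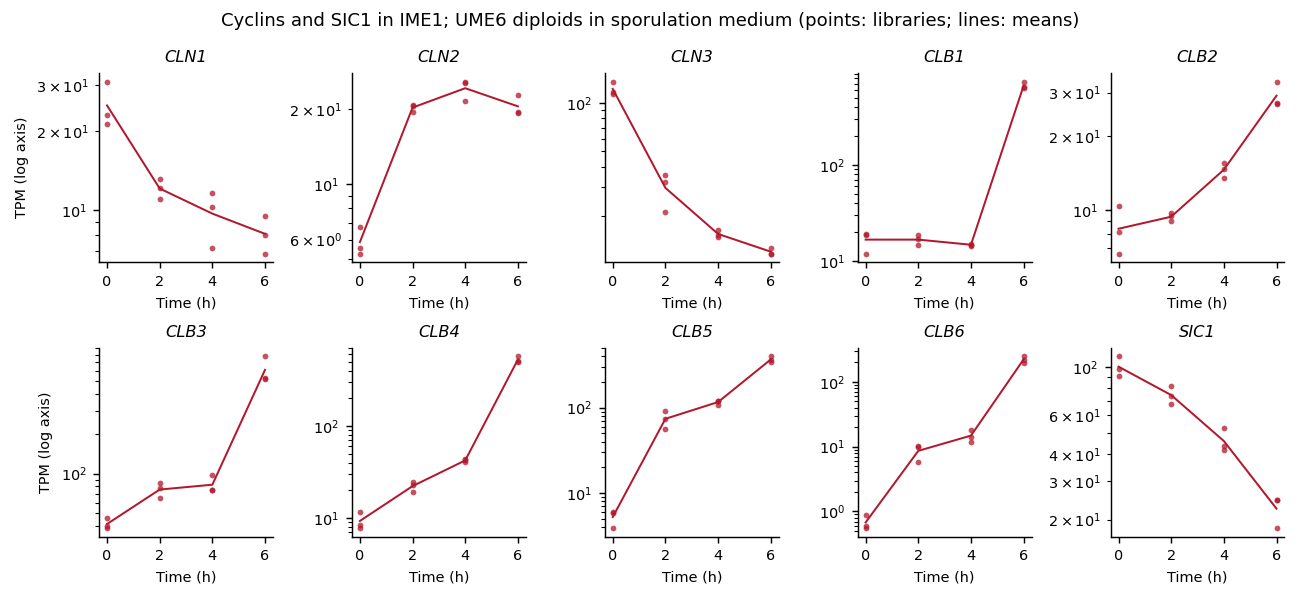
TPM of the 10 members in IME1; UME6 diploids over time in sporulation medium (h), on log axes whose ranges differ between panels. Points are libraries and lines join the means (n = 3); CLB1 stays flat to 4 h and reaches 632 to 737 TPM at 6 h, while CLN3 and SIC1 fall throughout.

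The T99N comparison asks how the weakened Ime1 site of Ume6 changes the course, with IME1; UME6(T99N)-3V5 set against IME1; UME6-3V5. Of 40 tests 9 were higher and 10 lower in the T99N strain, against 11.2% and 11.6% of all tests, and DESeq2 called 7 and 9. NDT80 at 6 h was 15.4 TPM in the T99N strain and 108 TPM in the UME6-3V5 strain, which itself was far below the 942 TPM of the untagged UME6 strain. Both strains of the comparison carried the 3V5 tag. CLB1 at 6 h was 60.8 ± 15.7 TPM with UME6-3V5 and 673 ± 56.4 TPM with untagged UME6, a difference that was not tested.

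At 0 h the mitotic cyclin CLB1 had 2.03, 1.69 and 1.94 TPM in the T99N strain, against 16.7 and 13.3 TPM in the UME6-3V5 strain. That fall of 3.00 ± 0.43 (adjusted p = 8.7e-07, edgeR) came with falls of CLB2 by 1.32 and CLN1 by 1.04. At 2 h CLB5 had 41.3, 35.2 and 27.5 TPM in the T99N strain, against 89.1 and 86.3 TPM in the UME6-3V5 strain, and fell by 1.27 ± 0.21 (adjusted p = 4.3e-06). CLB6 fell by 0.98 ± 0.34 and CLN3 rose by 1.59 ± 0.23 at that time. With the 2 exchanged libraries kept as labelled, the 2 h values of CLN3, CLB5 and CLB6 were 0.25, -0.72 and -0.42 (adjusted p = 0.689, 0.317 and 0.601), and with them exchanged back all calls of this comparison held. CLB6 at 2 h was also lost without any one of 4 cultures (adjusted p of 0.0656 to 0.141).

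At 6 h the division cyclin CLB4 had 37.8, 44.1 and 34.1 TPM in the T99N strain, against 109, 85 and 114 TPM in the UME6-3V5 strain, and fell by 1.29 ± 0.19 (adjusted p = 2.59e-07, edgeR). CLB2, CLB6, CLB1 and CLB5 fell by 0.94, 0.99, 0.82 and 0.49, and CLN1 and CLN3 rose by 0.87 and 0.72. At 4 h 5 members were higher (CLN1 by 1.31, CLB1 by 1.55, CLN3 by 0.93, CLB3 by 0.54 and SIC1 by 0.34) and none lower. Of all genes 14.7% were higher and 13.1% lower at 4 h. The SIC1 calls at 4 and 6 h did not pass under DESeq2 (adjusted p = 0.063 and 0.0674) or without any one culture. CLN1 at 6 h was lost without T99N replicate 1 (0.59, adjusted p = 0.0869), CLN1 at 0 h without UME6-3V5 replicate 2 (-0.91, adjusted p = 0.116), and CLB1 at 6 h under DESeq2 (-0.85, adjusted p = 0.0571) and without any one of 5 cultures (0.0659 to 0.107). CLB3 at 4 h and CLB5 at 6 h were each lost without any one of 4 cultures (adjusted p of 0.07 to 0.152 and of 0.0879 to 0.122).

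The tethering comparison set sfGFP-IME1 against IME1 in the UME6(T99N)-3V5-aGFP background, so the GFP tag and the tether differed together. The part of the tag alone was not tested. Of 40 tests 17 were higher in sfGFP-IME1 and 14 lower, beside 28.2% and 30.3% of all tests. The replication cyclins were higher from the first sample or from 2 h on, all 4 division cyclins were higher at 6 h, and CLN1, CLN3 and SIC1 were lower. NDT80 at 6 h was 329 TPM in the sfGFP-IME1 strain and 12.1 TPM in the IME1 strain.

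CLB5 had 75.9, 68.6 and 87.3 TPM in the sfGFP-IME1 strain at 2 h, against 12.6, 8.77 and 8.75 TPM in the IME1 strain, a rise of 2.67 ± 0.21 (adjusted p = 1.73e-17, edgeR). It was also higher at 0 h, by 2.12 ± 0.25, with 12.3, 22.6 and 10 TPM in the sfGFP-IME1 strain, against 3.63, 4.06 and 2.07 TPM in the IME1 strain. No CLB5 library overlapped at either time. CLB6 rose by 2.53 ± 0.37 at 2 h, 1.57 ± 0.36 at 4 h and 3.97 ± 0.30 at 6 h.

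CLB1 and CLB2 changed direction over the course. CLB1 had 1.78, 3.84 and 2.25 TPM in the sfGFP-IME1 strain at 0 h, against 16.3, 27.1 and 20.8 TPM in the IME1 strain, a fall of 3.11 ± 0.39 (adjusted p = 8.46e-10, edgeR). At 6 h it had 177, 266 and 62.9 TPM in the sfGFP-IME1 strain, against 7.63, 9.04 and 10.2 TPM in the IME1 strain, a rise of 4.15 ± 0.33 (adjusted p = 3.74e-18). CLB2 fell by 2.32 at 0 h and rose by 1.96 at 6 h.

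Replicate 3 of the sfGFP-IME1 strain at 6 h had the lowest level of CLB1, CLB3, CLB4, CLB5 and CLB6 of the 3 libraries. CLB3 had 172, 240 and 70.9 TPM in the sfGFP-IME1 strain at 6 h, against 42.1, 42.2 and 45.5 TPM in the IME1 strain, so all 3 lay above. NDT80 was 361, 467 and 158 TPM in the same 3 libraries, and its part in their spread was not tested. CLB4 rose by 3.68 ± 0.21 at 6 h, CLB5 by 3.34 ± 0.21 and CLB3 by 1.81 ± 0.20 (adjusted p = 1.67e-24, 5.26e-23 and 1.72e-12, edgeR).

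CLN3 did not pass at 0 h (-0.35 ± 0.19, adjusted p = 0.143) and fell by 1.32 to 1.65 from 2 h on. CLN1 fell at each time, by 1.13 to 2.18, and at 6 h had 6.59, 6.01 and 7.11 TPM in the sfGFP-IME1 strain, against 26.2, 28.7 and 28.2 TPM in the IME1 strain. CLN2 passed only at 6 h, with a rise of 0.33 that was lost without sfGFP-IME1 replicate 1 (0.33, adjusted p = 0.0578). SIC1 fell by 0.78 to 1.21 at the 4 times. CLB4 at 0 h (0.62, adjusted p = 0.0292) was lost with only the compared groups (adjusted p = 0.0659) and without any one of 4 cultures (0.0639 to 0.168).

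**Figure D4:**
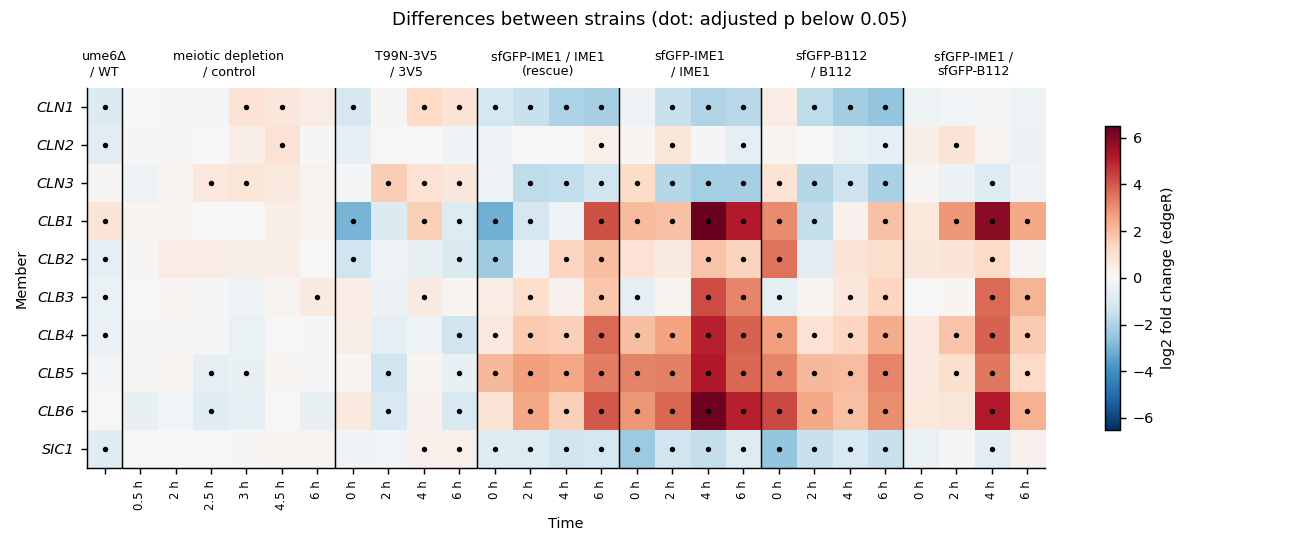
Log2 fold change of each member (rows) between strains (columns, grouped by comparison and ordered by time in h), with the first-named strain over the other and a dot where the adjusted p was below 0.05. CLB4, CLB5 and CLB6 are red in each of the sfGFP comparisons at 6 h, and CLN1, CLN3 and SIC1 are blue after 0 h where sfGFP strains are set against untagged ones.

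In the activation domain experiment sfGFP-IME1 came from the transgene, as B112 did, and not from the IME1 locus as in the rescue experiment. Of 40 tests of sfGFP-IME1 against IME1, 22 were higher and 12 lower, beside 30.4% and 34.1% of all tests. Of 40 tests of sfGFP-B112 against B112, 18 were higher and 13 lower, beside 25.5% and 27.8%. Between the tagged strains, 15 of 40 tests were higher in sfGFP-IME1 and 2 lower, beside 19.9% and 21.3%. These comparisons share libraries, so their values are given side by side.

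The replication cyclins were higher at 0 h in both tagged strains than in their untagged partners. CLB5 had 117, 150 and 107 TPM in the sfGFP-IME1 strain, against 11, 21.5 and 7.62 TPM in the IME1 strain, and 104, 62.2 and 75.2 TPM in the sfGFP-B112 strain, against 4.84, 6.81 and 9.14 TPM in the B112 strain. The rises were 3.23 ± 0.27 and 3.16 ± 0.27 (adjusted p = 6.15e-13 and 1.82e-12, edgeR). CLB6 averaged 8.27 ± 0.676 TPM in the sfGFP-IME1 strain and 1.22 ± 1.16 TPM in the IME1 strain, and 5.01 ± 1.94 TPM in the sfGFP-B112 strain and 0.205 ± 0.132 TPM in the B112 strain (SD, n = 3). SIC1 ran the other way at 0 h, with 15.5, 19.8 and 16.9 TPM in the sfGFP-IME1 strain, against 78.8, 77 and 99.2 TPM in the IME1 strain, and 13.7, 29.3 and 26.5 TPM in the sfGFP-B112 strain, against 90, 100 and 108 TPM in the B112 strain.

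No CLB5 or SIC1 library overlapped between a tagged strain and its untagged partner at 0 h. SIC1 fell by 2.35 ± 0.21 with sfGFP-IME1 and by 2.49 ± 0.21 with sfGFP-B112 (adjusted p = 9.22e-12 and 2.06e-12, edgeR), and it stayed lower at each later time in both comparisons. CLB4 and CLB6 were higher at each of the 4 times in both. CLB6 at 0 h rested on 2, 3 and 1 estimated counts in the B112 libraries, and CLB2 on 7, 0 and 0, so folds against that strain at 0 h rest on few reads. The CLB2 value at 0 h was 3.51 and moved to 8.32 without B112 replicate 1 and to 1.98 (adjusted p = 0.121) without sfGFP-B112 replicate 1. Without IME1 replicate 2 the CLB6 value at 0 h moved from 2.85 to 3.85, and without B112 replicate 2 the other moved from 4.28 to 4.89.

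Between the tagged strains 4 members were higher in sfGFP-IME1 at 2 h, beside 14.5% of all genes higher and 12.8% lower. At 4 h 6 members were higher and 2 lower, beside 26.9% and 36.1% of all genes. At 4 h CLB1 had 551, 647 and 527 TPM in the sfGFP-IME1 strain, against 31, 9.93 and 7.52 TPM in the sfGFP-B112 strain. CLB3 had 644, 612 and 557 TPM in the sfGFP-IME1 strain, against 83.6, 65.7 and 77 TPM in the sfGFP-B112 strain. CLB6 had 199, 208 and 202 TPM in the sfGFP-IME1 strain, against 14.8, 7.61 and 6.03 TPM in the sfGFP-B112 strain. In these 3 genes the lowest sfGFP-IME1 library was several times the highest sfGFP-B112 library, and the differences were 5.87 ± 0.54, 3.69 ± 0.25 and 5.13 ± 0.41 (adjusted p = 8.66e-12, 2.93e-15 and 2.58e-13, edgeR).

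CLB4 and CLB5 were higher in the sfGFP-IME1 strain by 3.83 ± 0.31 and 3.45 ± 0.26 at 4 h, and CLB2 by 1.22 ± 0.51, a call lost without any one of 4 cultures (adjusted p of 0.0603 to 0.132). CLN3 and SIC1 were lower by 0.85 ± 0.16 and 0.72 ± 0.21. NDT80 at 4 h was 957 TPM in the sfGFP-IME1 strain and 27.2 TPM in the sfGFP-B112 strain. The median of all genes at 4 h was -0.25 on the TMM scale, -0.13 with RLE size factors and -0.93 as a ratio of mean TPM. No member's call changed direction among them, although at 6 h the median member was 0.75 on the TMM scale and -0.02 as a ratio of mean TPM. At 0 h none of the 10 members passed between the tagged strains, beside 8.79% of all genes higher and 9.23% lower. At 2 h CLN2, CLB1, CLB4 and CLB5 were higher in sfGFP-IME1, by 0.85, 2.82, 1.84 and 1.02.

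At 6 h the levels were closer together. CLB1 had 264, 199 and 179 TPM in the sfGFP-IME1 strain, against 141, 22.1 and 37 TPM in the sfGFP-B112 strain, and CLB4 had 216, 162 and 129 TPM, against 147, 57.9 and 63.1 TPM. The CLB4 libraries overlapped, and the fitted differences were 2.45 ± 0.46 and 1.69 ± 0.28 (adjusted p = 2.94e-05 and 5.33e-06, edgeR). CLB3, CLB5 and CLB6 were higher by 2.19, 1.24 and 2.24. As a ratio of mean TPM, where the median of all genes at 6 h was -0.78 (-0.01 on the TMM scale), CLB1, CLB3, CLB4, CLB5 and CLB6 were higher by 1.68, 1.42, 0.92, 0.46 and 1.47. In sfGFP-IME1 against IME1 the median of all genes on that scale was -0.67 at 4 h and -0.80 at 6 h, where TMM gave -0.16 and -0.05.

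Replicate 1 of sfGFP-B112 stood apart at 6 h, with CLB1 at 141 TPM, CLB3 at 187 TPM, CLB4 at 147 TPM and CLB6 at 63.5 TPM, the highest of its 3 libraries in each. Without that culture sfGFP-B112 against B112 at 6 h gave 0.78 for CLB1 (adjusted p = 0.0648, against 1.91 with it), 0.77 for CLB3 (against 1.39) and 2.04 for CLB6 (against 3.00). Likewise sfGFP-IME1 against sfGFP-B112 gave 3.60 for CLB1, 2.83 for CLB3 and 3.22 for CLB6 at 6 h, and 6.76 for CLB1 at 4 h. NDT80 moved with it, at 255 TPM in that library and 42.9 and 66.9 TPM in the other two, and its part in these values was not tested.

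**Figure D5:**
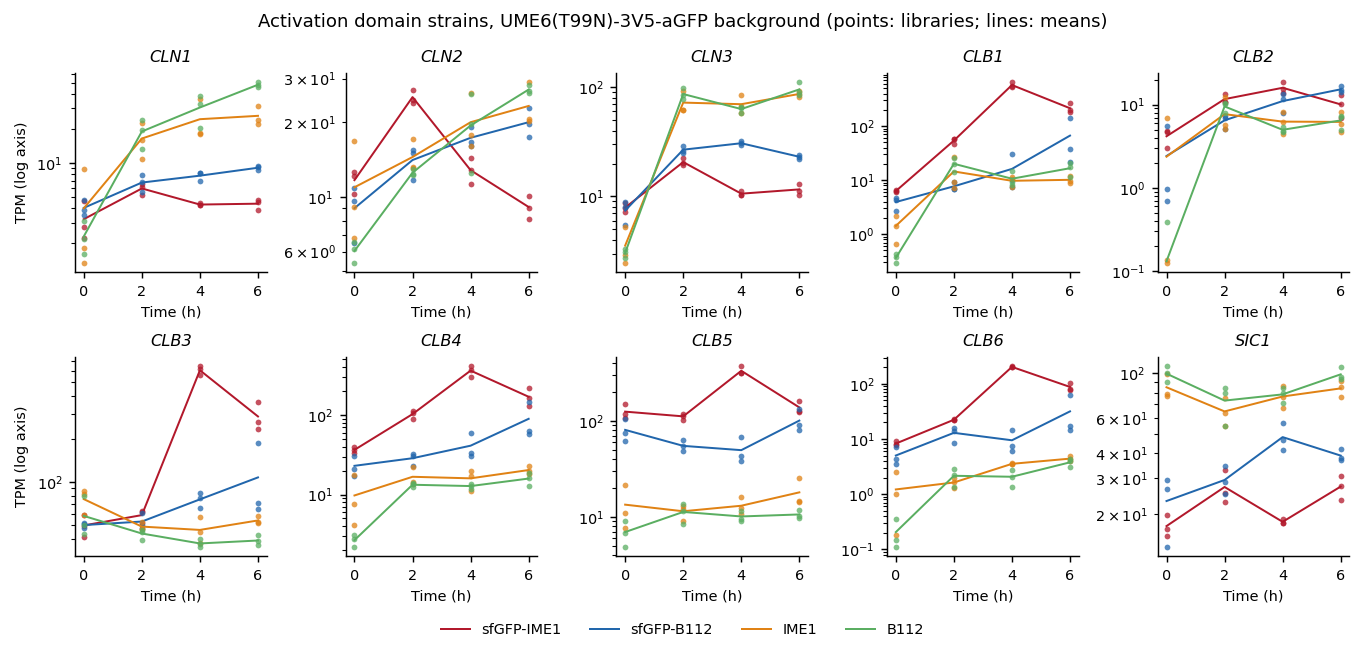
TPM of the 10 members over time in sporulation medium (h) in the 4 activation domain strains, on log axes whose ranges differ between panels. Points are libraries and lines join the means (n = 3); CLB1 to CLB6 peak at 4 h in sfGFP-IME1, and 2 B112 libraries with CLB2 at 0 TPM at 0 h are not drawn.

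CLN1 and CLN3 were lower in both tagged strains than in their untagged partners at 2, 4 and 6 h. CLN3 at 2 h had 20.1, 19.5 and 22.3 TPM in the sfGFP-IME1 strain, against 62.3, 61.7 and 92.9 TPM in the IME1 strain, and 25.2, 29.1 and 26.1 TPM in the sfGFP-B112 strain, against 84, 77.4 and 98.4 TPM in the B112 strain. The falls were 1.84 ± 0.16 and 1.86 ± 0.16 (adjusted p = 3.52e-12 and 6.18e-12, edgeR), without overlap. CLN1 fell at 2, 4 and 6 h in both comparisons, by 1.47 to 2.51. At 0 h CLN3 was at 2.46 to 8.92 TPM in all 12 libraries of this experiment, and the diploids of the rescue experiment had 55.1 to 135 TPM at their 0 h, on separately normalized tables.

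CLN2 passed at fewer times than the other G1 cyclins: it rose by 0.78 at 2 h and fell by 0.60 at 6 h in sfGFP-IME1 against IME1, and fell by 0.53 at 6 h in sfGFP-B112 against B112. The call at 6 h against IME1 was lost without IME1 replicate 1 (-0.44, adjusted p = 0.0601) or sfGFP-IME1 replicate 3 (-0.51, adjusted p = 0.0574), and that against B112 without any one of 4 cultures (adjusted p of 0.0521 to 0.0984). CLB1 at 2 h rose by 1.89 in sfGFP-IME1 against IME1, which was 2.72 without IME1 replicate 1, and fell by 1.55 in sfGFP-B112 against B112, which was -1.30 (adjusted p = 0.0509) without B112 replicate 2. CLB3 fell at 0 h by 0.64 in sfGFP-IME1 and by 0.58 in sfGFP-B112, and both calls were lost with only the compared groups (adjusted p = 0.0537 and 0.0981), the first also without IME1 replicate 3 (-0.48, adjusted p = 0.113) or sfGFP-IME1 replicate 3 (-0.54, adjusted p = 0.0775) and the last without B112 replicate 1 (-0.29, adjusted p = 0.326).

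Of the 6 G2/M genes that cycle with CLB2, 5 were higher in sfGFP-IME1 than in sfGFP-B112 at 4 h (median 2.05, where that of all genes was -0.25), CDC5 by 4.22. Of 8 turnover genes 4 were higher and 1 lower, with CDC20 higher by 5.28. Of 6 genes of Cdc28 and its regulators 3 were higher and 1 lower, among them CDC14, the phosphatase that ends mitosis, by 2.05. Of all genes 26.9% were higher and 36.1% lower at that time.

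The genes whose pattern over the 32 conditions of the rescue experiment was most like a member's were found by Pearson's r of log2(TPM + 1) among 5508 genes. The points share strains, times and the table's normalization, and no p is given. CLB6 stood with CNM67 (r = 0.986), SPC42 (0.985) and EXO1 (0.982), genes for a pair of spindle pole body proteins and an exonuclease. CLB5 stood with SPC29, PBP2 and PDS1 (0.978 each), PDS1 encoding securin. CLB1 stood with HOF1 (0.935), LIH1 (0.921) and CDC20 (0.918), and CLB2 with HOF1 (0.912), PTI1 (0.891) and HST3 (0.889).

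CLB3 was closest to SRC1 (r = 0.948), SPC42 (0.946) and SPO14 (0.942), and CLB4 to an unnamed SK1 gene (0.985), GAL7 (0.982) and CDC23 (0.981). Among the genes that fell in sporulation, CLN3 was closest to NRG1 (0.962), MHO1 (0.958) and IRE1 (0.947), and SIC1 to ENT3 (0.933), PAH1 (0.930) and GEF1 (0.929). CLN2 was closest to NTH2 (0.952), SMP3 (0.951) and ILM1 (0.951), and CLN1, with the lowest values, to ERG9 (0.892), TOS7 (0.859) and PRY2 (0.801). Of the 30 genes 25 were found again with a pseudocount of 0.1 and 23 with 5. None of the 3 named beside CLB6 was among them with 0.1, where MLO50, STU2 and PDR17 stood closest, and CLB4 kept 1 of 3 with 5.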

How the data were processed

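RNA was poly(A)-selected, and directional single-end libraries were quantified by the authors with kallisto, whose version and strand option are not given in the sources used here. The deposited tables hold estimated counts per SK1 gene, and the deposited TPM tables were normalized by the authors within each library for transcript length and depth. Estimated counts were rounded to whole numbers, although 95.4 to 96% were whole already (within 1e-06). Within each experiment, genes passing filterByExpr (5488 to 5528) were fitted in R 4.3.3 with edgeR 4.0.16, using TMM scaling, 1 coefficient per condition and glmQLFTest, and p-values were adjusted over all genes in each of 49 contrasts at a threshold of 0.05. Every adjusted p is from edgeR unless DESeq2 1.42.0 is named. TPM are printed as values and were not tested. Tables were prepared with Python 3.11.15, pandas 2.3.3 and numpy 2.4.6. The fit was tested on simulated data. SD cover the 3 libraries of a condition (2 for IME1; UME6-3V5 at 0 and 2 h), and SE rest on a spread estimated over all conditions of an experiment.

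The members and gene lists were chosen with earlier results of these data known. All members are named, with at most 3 genes of each list per comparison (those called with the largest absolute log2 change), the 3 genes most like each member, and state markers. Alternatives were DESeq2, RLE size factors, no filter, a fit of the compared groups alone, the replicate number as a block, each culture left out in turn and, chosen after seeing the data, mean TPM ratios and fits without 1 shallow library or 1 library that stood apart. MFA1, MFA2 and CUP1-1 were not analysed here. Replicate libraries were compared, and 0 of 222 pairs were identical. Results that need a withheld item are not reported here.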

Additional observations from a re-analysis of the deposited data

Results flagged for a closer look

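The change after induction differed between the meiotic depletion strain and its control in 2 genes, by a test of the difference itself. For CLB5 at 2.5 h it was -0.70 (adjusted p = 0.0498) and for CLN2 at 4.5 h it was 1.08 (adjusted p = 0.01, both edgeR). The CLB5 call was lost with only the compared groups (adjusted p = 0.0621) and without any one of 5 cultures, and the CLN2 call without any one of 2.

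For some members the same pair of strains was separated in opposite directions at different times, and these differences between times were not tested. Several of the calls were lost under another setting or without some culture, as named here. With T99N, CLN1 was -1.04, 1.31 and 0.87 at 0, 4 and 6 h and CLB1 was -3.0, 1.55 and -0.82 at the same times. The calls of CLN1 at 0 and 6 h were each lost without 1 culture, and that of CLB1 at 6 h under DESeq2 and without any one of 5. With tethered Ime1, CLB1 was -3.11, -1.10 and 4.15 at 0, 2 and 6 h and CLB2 was -2.32, 1.40 and 1.96 at 0, 4 and 6 h.

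In the activation domain strains, sfGFP-IME1 against IME1 gave 0.78 and -0.60 for CLN2 at 2 and 6 h, and -0.64, 4.23 and 3.17 for CLB3 at 0, 4 and 6 h. CLN3 was 1.17, -1.84, -2.20 and -2.16 at 0, 2, 4 and 6 h there, and 0.91, -1.86, -1.34 and -2.13 in sfGFP-B112 against B112. CLB1 in the last comparison was 3.07, -1.55 and 1.91 at 0, 2 and 6 h. The calls of CLN2 at 6 h and CLB3 at 0 h were each lost without any one of 2 cultures, that of CLB1 at 2 h without B112 replicate 2 and that of CLB1 at 6 h without sfGFP-B112 replicate 1 (0.78, adjusted p = 0.0648). The 0 h values of this experiment came with low levels, with CLN3 at 2.46 to 8.92 TPM and CLB1 in the B112 libraries at 0.294 to 0.43 TPM.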

How the results depend on the processing

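Of the 239 calls among members, none reversed in the 1703 values from other settings or the 1182 from leaving out a culture, and 59 were lost or moved by over 1.5 times without some culture. DESeq2 and RLE size factors lost 3 calls each, a fit of the compared groups alone 16 of 238, and the exchanged libraries kept as labelled 11 of 77, whereas no filter, the exchange undone and the fits without 1 library lost 0. As a ratio of mean TPM, which has no test, 80 of 239 values were counted as moved by more than the spread between replicates (1 SD). None changed direction. The 2 calls of the induction difference had no such SD and are counted among the 80. The induction difference gave 4 calls with DESeq2 and 1 with the compared groups alone, against 2. The cause was not tested.

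Without one culture the calls were 0 to 9 for mitotic depletion (5 with all), 4 to 9 for meiotic depletion (9), 0 to 2 for the induction difference (2), 7 to 8 for the deletion (7), 13 to 17 for T99N (19), 29 to 33 for tethering (31) and 16 to 23 for sfGFP-IME1 against sfGFP-B112 (17). Pairing of same-numbered libraries was uneven: at most 6 of 12 pairs in a comparison had deviations correlated above 0.1. The highest r was 0.63, in the mitotic control course, where 8 of 15 libraries matched best with their own number. With the replicate number as a block (153 values) or the culture as a block (86), 0 calls changed. The precision for CLB6, CLB2 and CLB1 at 0 h is limited by few reads, since single libraries held 0 to 8 estimated counts.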
